A study of Mus musculus with 28 samples.

Results

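The immunity-related GTPases are a family of large GTP-binding proteins of mice that cells make after exposure to interferon. The 8 genes described here were fixed by symbol: *Irgm1*, *Irgm2*, *Igtp*, *Iigp1*, *Tgtp1*, *Tgtp2*, *Ifi47* and *Gm4951*. Each matched 1 of the 49585 gene rows of the liver count table by its Ensembl identifier, and all 8 were among the 21583 genes tested. The libraries came from livers of 28 C57BL/6JOlaHsd mice aged 5-7 months by their labels, fasted before collection, with 7 mice in each of 4 groups: wild-type (WT) males, SIRT6-transgenic (SIRT6-tg) males, WT females and SIRT6-tg females. All transgenic mice came from a single line that overexpresses SIRT6, a nuclear NAD+-dependent deacylase, and had been backcrossed to the same strain. WT mice were their littermates and shared their cages. The promoter that drives the transgene is not given in the sources used here, and reads of the transgene and the endogenous gene were counted together. The question addressed was how the levels of these genes differ with SIRT6 overexpression in each sex.

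Interferon-gamma acts through a receptor (IFNGR1 and IFNGR2) and the kinases JAK1 and JAK2, and switches on genes through a DNA element called GAS. IRF1, itself made in response, binds another element called ISRE. Immunity-related GTPases carry out cell-autonomous defence: the effector proteins IIGP1, TGTP and IFI47 load onto the vacuole of parasites such as *Toxoplasma gondii*, while IRGM1, IRGM2 and IGTP sit on the cell's own membranes and hold the effectors inactive there. *Gm4951* is a relative of *Iigp1* that lies in the same gene cluster on chromosome 18.

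The family lies in clusters (GRCm38, Gencode vM21 gene models). *Irgm1* (ENSMUSG00000046879.7, chr11:48861968-48871683, minus strand), *Tgtp1* (ENSMUSG00000078922.9, chr11:48985327-48994172, minus strand), *Tgtp2* (ENSMUSG00000078921.3, chr11:49057194-49064206, minus strand) and *Ifi47* (ENSMUSG00000078920.3, chr11:49076587-49096974, plus strand) form the first. *Igtp* (ENSMUSG00000078853.8, chr11:58199556-58207591) and *Irgm2* (ENSMUSG00000069874.7, chr11:58199618-58222782), both on the plus strand, form the second. *Gm4951* (ENSMUSG00000073555.1, chr18:60212080-60247820) and *Iigp1* (ENSMUSG00000054072.12, chr18:60376027-60392634), both on the plus strand, form the third. All 8 are annotated as protein coding.

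Several members share sequence, which limits how reads can be assigned to them. Of the 50-base stretches in *Tgtp1* transcripts, 79.4% also occur in *Tgtp2*, and 85.8% of those in *Tgtp2* occur in *Tgtp1*, so the counts of this pair taken singly are uncertain. *Igtp* and *Irgm2* share 162 exon bases on the same strand, 8.01% of the exon length of *Igtp*. *Ifi47* shares 111 exon bases with the olfactory receptor gene *Olfr56*, and *Tgtp1* shares 223 with *Gm12185*, a further gene of the family. The strand setting of the counting is not given in the sources used here.

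RefSeq promoter sequence (GRCm38.p6, 250 bases before to 50 after the start of transcription) was at hand for 6 members. It was searched on both strands for the core of an ISRE, taken as GAAA repeated after any 2 bases, and for the core of a GAS, taken as TTC and GAA with any 3 bases between them. Of 32851 mouse promoters in the table, 3.44% held the first and 8.30% the second. The stretches around the matches are shown because they are alike across both clusters on chromosome 11. Capitals mark the matched letters, and each stretch is written 5′ to 3′ on the strand of its gene.
Irgm1, chr11:48871428-48871457: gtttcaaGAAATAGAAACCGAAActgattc
Irgm2, chr11:58214877-58214947: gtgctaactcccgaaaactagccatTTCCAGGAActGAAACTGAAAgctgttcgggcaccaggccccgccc
Igtp, chr11:58199486-58199556: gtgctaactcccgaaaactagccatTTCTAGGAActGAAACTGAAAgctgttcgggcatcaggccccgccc
Tgtp1, chr11:48992289-48992359: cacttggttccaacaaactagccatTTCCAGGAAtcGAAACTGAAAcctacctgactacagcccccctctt
Tgtp2, chr11:49064248-49064318: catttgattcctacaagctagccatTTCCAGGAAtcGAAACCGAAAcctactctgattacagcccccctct
Gm12185, chr11:48927223-48927293: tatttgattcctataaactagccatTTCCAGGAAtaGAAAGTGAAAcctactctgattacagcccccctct

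In *Irgm2*, *Igtp*, *Tgtp1* and *Tgtp2* a GAS match was followed after 2 bases by an ISRE match. This combined pattern, which was chosen after these promoters had been read, occurred in 5 of the 32851 promoters, or 0.0152%. These 5 were the 4 members just named and *Gm12185*. The *Irgm2* and *Igtp* stretches had the same base at 69 of 71 positions. *Irgm1* held 2 ISRE matches that overlap, the first beginning 30 bases before the start, and no GAS match. The *Ifi47* window held neither set of letters. In the Gencode models the *Irgm1* stretch lies in an exon, those of *Irgm2*, *Tgtp1* and *Gm12185* in introns of those genes, that of *Igtp* directly before the gene and that of *Tgtp2* upstream of its gene, within an intron of *Olfr56*. A match describes the sequence and does not show that a factor binds there.

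**Figure D1:**
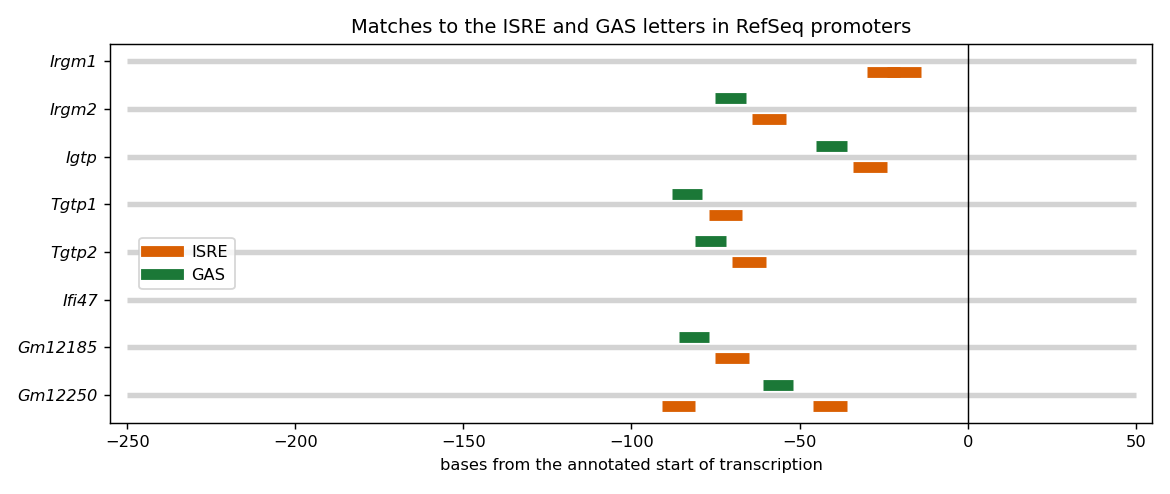
Position of matches to the ISRE letters (orange) and GAS letters (green) in RefSeq promoters of 6 members and of the family genes Gm12185 and Gm12250; the horizontal axis gives bases from the annotated start of transcription (0). Irgm2, Igtp, Tgtp1, Tgtp2 and Gm12185 carry a GAS match directly followed by an ISRE match, Irgm1 carries overlapping ISRE matches, and Ifi47 carries none.

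Library totals ran from 18758863 to 35393069 counts. Levels are given as CPM, in which each count is divided by the total of its library after adjustment of that total by TMM, a scaling that takes the bulk of genes as equal between libraries. *Sirt6* followed the genotype labels in every mouse. Its level was 1.69 to 3.24 CPM in male WT and 198 to 358 CPM in male SIRT6-tg mice, and 1.80 to 6.22 CPM in female WT and 16.4 to 50.2 CPM in female SIRT6-tg mice. The log2 difference was 6.68 (SE 0.30) in males and 3.39 (SE 0.26) in females, and the effect on *Sirt6* differed between the sexes (log2 difference 3.29, SE 0.35, adjusted p = 6.96e-06, edgeR). The level of *Sirt6* and sex cannot be told apart where the effects of the transgene in males and females are compared. Between male WT and female WT mice the log2 difference of *Sirt6* was -0.07 (SE 0.26, adjusted p = 0.908, edgeR). The median log2 fold change over all genes between male SIRT6-tg and male WT mice was 0.06 with TMM and -0.22 when libraries were scaled to their totals alone. In whole liver, fewer cells of a type and less RNA per cell cannot be told apart.

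In males, the family was lower in SIRT6-tg than in WT livers. Of the 8 members, 7 fell and 0 rose (edgeR quasi-likelihood test, Benjamini-Hochberg adjusted p under 0.05), where 11% of all genes tested were lower and 9.68% were higher. For each of the 7, all 7 transgenic mice lay below every WT mouse. The share of all genes tested that separate in this way is not given here, so this describes the members only. The median log2 fold change of the 8 members was -1.97, against 0.06 over all genes. The fold ran from 2.97-fold lower for *Irgm1* to 27.6-fold lower for *Tgtp1*.

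The regulators fell together. *Irgm1*, whose protein restrains the effectors at the Golgi and at lysosomes, lay between 105 and 226 CPM (median 134) in male WT mice and between 44.5 and 55.1 CPM (median 49.96) in male SIRT6-tg mice. The groups did not overlap, and the log2 fold change was -1.57 (SE 0.20, adjusted p = 1.02e-06, edgeR). *Irgm2*, a regulator of the Golgi, lay between 118 and 244 CPM (median 153) in WT and between 36.4 and 52.7 CPM (median 45.3) in SIRT6-tg males. The lowest WT mouse stood 2.25-fold above the highest transgenic mouse, and the log2 fold change was -1.86 (SE 0.24, adjusted p = 1.08e-06, edgeR). *Igtp*, a regulator of the endoplasmic reticulum and of lipid droplets, lay between 107 and 259 CPM (median 184) in WT and between 23.1 and 32.2 CPM (median 27.7) in SIRT6-tg males. Its log2 fold change was -2.73 (SE 0.34, adjusted p = 1.05e-06, edgeR).

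The effectors fell as well. *Iigp1*, an effector that coats the parasite vacuole, had the highest level of the family, with 760 to 1353 CPM (median 863) in male WT and 282 to 346 CPM (median 317) in male SIRT6-tg mice. The transgenic mice were close to each other and all below the WT mice, and the log2 fold change was -1.60 (SE 0.26, adjusted p = 4.64e-05, edgeR). *Ifi47* lay between 51.6 and 144 CPM (median 98.1) in WT and between 21.4 and 27.2 CPM (median 23.5) in SIRT6-tg males, a log2 fold change of -2.07 (SE 0.28, adjusted p = 3.59e-06, edgeR).

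*Tgtp1* and *Tgtp2* encode near-identical effectors of the vacuole coat. *Tgtp1* had 15.2 to 51.1 CPM (median 19.6) in male WT and 0.530 to 1.32 CPM (median 1.04) in male SIRT6-tg mice. The counts behind these levels were 319 to 2065 and 10 to 36, and the lowest WT mouse stood 11.5-fold above the highest transgenic one. The log2 fold change was -4.79 (SE 0.68, adjusted p = 8.91e-06, edgeR). *Tgtp2* was rarer, with 2.16 to 7.17 CPM (median 4.43) in WT and 0.452 to 1.33 CPM (median 0.899) in SIRT6-tg males, and its log2 fold change was -2.50 (SE 0.34, adjusted p = 2.22e-06, edgeR). With the counts of the pair added, the log2 fold change was -4.15. Only uniquely aligned reads were counted, so reads that match both genes may be missing from this sum.

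*Gm4951* was the member that did not pass the test in males. It lay between 112 and 148 CPM (median 126) in male WT and between 117 and 186 CPM (median 129) in male SIRT6-tg mice. The groups overlapped, and the log2 fold change was 0.10 (95% interval -0.09 to 0.30, adjusted p = 0.499, edgeR), or -0.19 (adjusted p = 0.152) with libraries scaled to their totals alone.

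**Figure D2:**
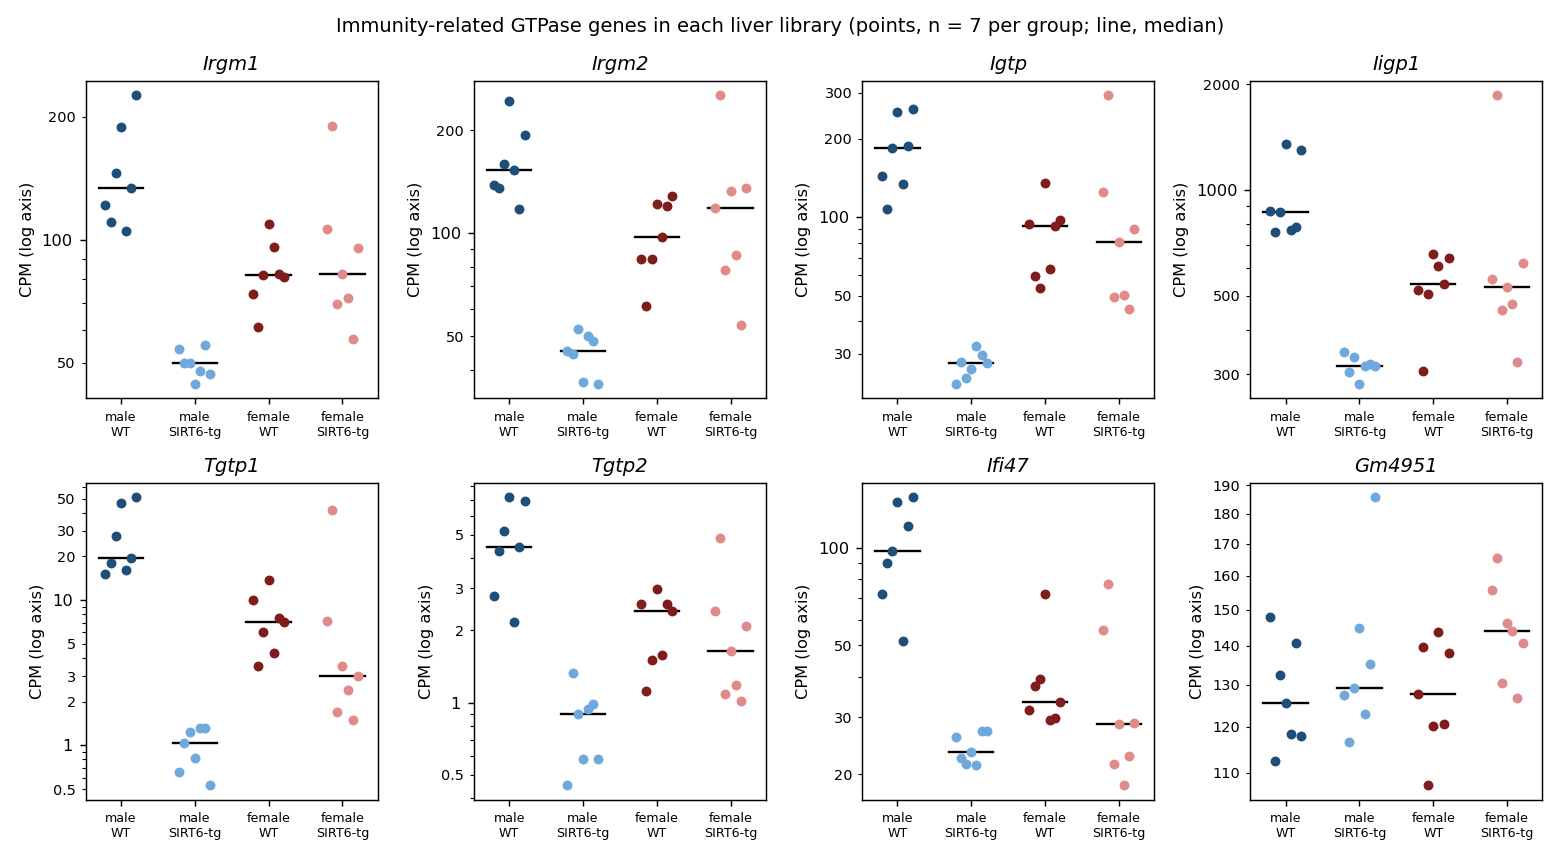
TMM-normalized CPM (log axis, a separate range in each panel) of the 8 genes in each of the 28 liver libraries; each point is 1 mouse, n = 7 per group, and the line is the median. For 7 genes every male SIRT6-tg mouse lies below every male WT mouse, the female groups overlap for all 8 genes, and 1 female SIRT6-tg mouse stands above all other females for all 8, by the least for Gm4951. How many of all genes tested separate or overlap in this way is not given here.

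In females, no member passed the test. With edgeR 0 of 8 were called and 0 had an unadjusted p under 0.05, where 0.0278% of all genes tested were called in either direction. DESeq2 also called 0 of the 8, and called 42 of 17398 genes in all. At shares this low, 0 of 8 says little about the members themselves. The log2 fold changes ran from -0.11 for *Ifi47* to 0.35 for *Iigp1*, and the ranges of the female groups overlapped for all 8. *Iigp1* lay between 307 and 657 CPM (median 540) in female WT and between 324 and 1856 CPM (median 532) in female SIRT6-tg mice. *Igtp* lay between 53.6 and 135 CPM (median 92.4) in WT and between 44.6 and 293 CPM (median 80.7) in SIRT6-tg females. Medians of these 2 genes were thus close, and the upper end of the transgenic range was set by a single mouse.

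For *Irgm1* the female ranges were 61.2 to 109 CPM (median 81.9) in WT and 57.3 to 190 CPM (median 82.5) in SIRT6-tg mice. For *Irgm2* they were 61.4 to 129 CPM (median 97.7) and 54.1 to 253 CPM (median 119). The 95% intervals of the log2 fold change were -0.20 to 0.60 for *Irgm1* and -0.17 to 0.77 for *Irgm2*. The widest interval of the 8 was that of *Tgtp1*, from -0.91 to 1.39.

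*Tgtp1* lay between 3.49 and 13.8 CPM (median 7.07) in female WT and between 1.49 and 41.4 CPM (median 3.02) in female SIRT6-tg mice. Of the 7 transgenic females, 4 lay below every WT female and 1 lay above every WT female. *Tgtp2* lay between 1.11 and 2.96 CPM (median 2.40) in WT and between 1.01 and 4.85 CPM (median 1.64) in SIRT6-tg females. *Ifi47* lay between 29.3 and 71.9 CPM (median 33.5) in WT and between 18.5 and 77.2 CPM (median 28.6) in SIRT6-tg females, with 5 transgenic mice below every WT mouse and 1 above. *Gm4951* lay between 107 and 144 CPM (median 128) in WT and between 127 and 165 CPM (median 144) in SIRT6-tg females, an overlap in which 4 transgenic mice exceeded every WT mouse.

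The mouse that stood apart was female SIRT6-tg replicate 2, which held the highest level of its group for all 8 members. Its *Iigp1* level was 1856 CPM where the next mouse of the group had 622 CPM, and its *Tgtp1* level was 41.4 CPM where the next had 7.15 CPM. Its levels of *Irgm2* and *Igtp* were 253 and 293 CPM, where the next mice had 135 and 125 CPM. These levels were also above the highest WT female.

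Several other interferon-gamma response genes were high in the same mouse. *Nlrc5* stood at 55.8 CPM against 18.2 to 34.2 CPM in the other 6 transgenic females, and *Ciita* at 4.66 CPM against 0.708 to 2.44 CPM. Its *Irf1* level of 69.6 CPM was closer to the next mouse at 62.7 CPM. *Socs1* stood at 0.989 CPM where the next mouse had 0.958 CPM, and *Irf8* at 11.6 CPM lay within the 7.79 to 13.1 CPM of the others. The summed level of 11 guanylate-binding protein genes, which belong to a second family of interferon-inducible GTPases, was 405 CPM there and at most 215 CPM in the others. *Ifng* itself had 2 counts in this library. The summed levels of 8 T cell markers (6.45 CPM) and 7 NK cell markers (7.47 CPM) lay within the range of the other 6.

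Without that mouse the female log2 fold changes were -0.06 for *Irgm1*, 0.02 for *Irgm2*, -0.21 for *Igtp*, -0.13 for *Iigp1*, -1.21 for *Tgtp1*, -0.41 for *Tgtp2*, -0.41 for *Ifi47* and 0.13 for *Gm4951*. The direction of *Irgm1*, *Igtp*, *Iigp1* and *Tgtp1* turned when it was left out. Again 0 members passed the adjusted test, where 16 of all genes tested did. An unadjusted p under 0.05 was found for 1 member, *Tgtp1* (adjusted p = 0.336, edgeR).

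**Figure D3:**
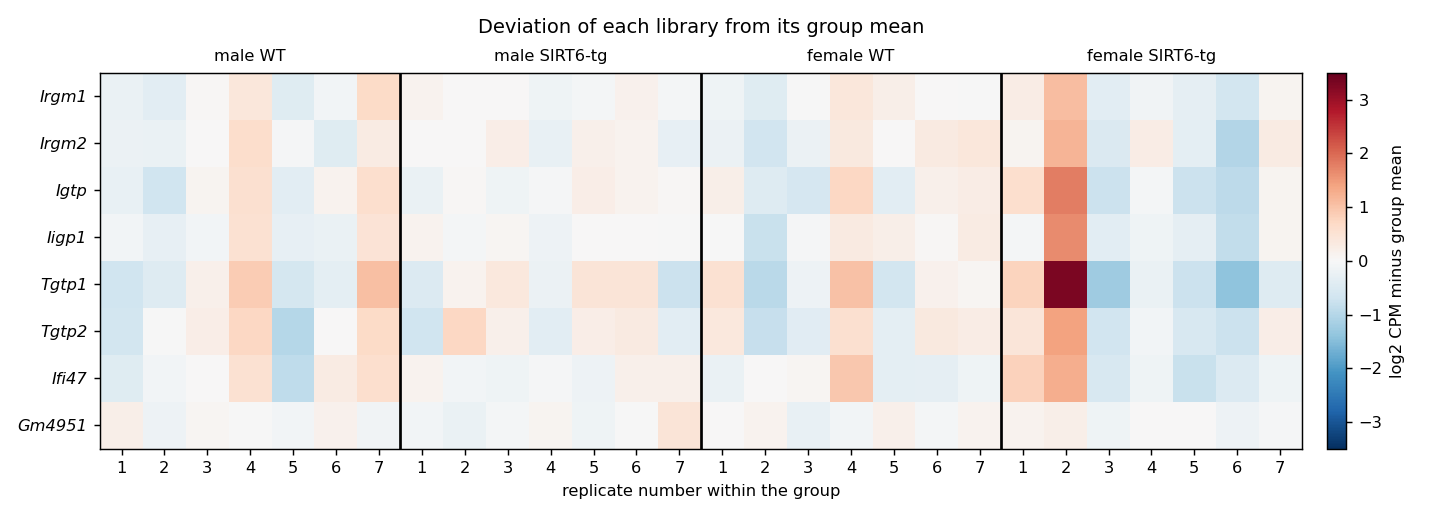
Deviation of each library from the mean of its group, in log2 CPM, for the 8 genes (rows) in 28 mice (columns, grouped, with replicate numbers). Female SIRT6-tg replicate 2 is high, least so for Gm4951, with the darkest cell at Tgtp1, male WT replicates 4 and 7 are high together for the same 7 genes, and Gm4951 varies little.

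The effect of the transgene on the family differed between the sexes. Of the 8 members, 7 had a more negative effect in males than in females by the interaction term of the same fit, where 3.84% of all genes tested did. The difference between the effects, male minus female on the log2 scale, was -1.77 (SE 0.28) for *Irgm1*, -2.16 (SE 0.33) for *Irgm2* and -3.03 (SE 0.46) for *Igtp*. Among effectors it was -1.95 (SE 0.37) for *Iigp1*, -5.03 (SE 0.87) for *Tgtp1*, -2.48 (SE 0.46) for *Tgtp2* and -1.97 (SE 0.39) for *Ifi47*. The adjusted p-values of these 7 (edgeR) ran from 0.000208 to 0.00272. For *Gm4951* the difference was -0.07 (95% interval -0.34 to 0.21, adjusted p = 0.855, edgeR). Without female SIRT6-tg replicate 2 the same 7 differed, with differences from -3.58 for *Tgtp1* to -1.47 for *Iigp1*.

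WT livers already differed by sex. Male WT mice had higher levels than female WT mice for 7 of the 8 members, where 6.65% of all genes tested were higher in males. This comparison uses the same male WT and female WT libraries as the comparisons by genotype, so it is not separate evidence. The log2 difference was 0.82 (SE 0.20, adjusted p = 0.00491, edgeR) for *Irgm1*, 0.71 for *Irgm2*, 1.09 for *Igtp*, 0.83 for *Iigp1*, 1.90 for *Tgtp1*, 1.17 for *Tgtp2* and 1.38 (SE 0.28, adjusted p = 0.000946, edgeR) for *Ifi47*. For *Gm4951* it was -0.003 with TMM and 0.19 with libraries scaled to their totals alone, and it did not pass the test under either. The count of 7 fell to 4 without male WT replicate 4, to 3 without male WT replicate 7 and to 4 without female WT replicate 3.

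**Figure D4:**
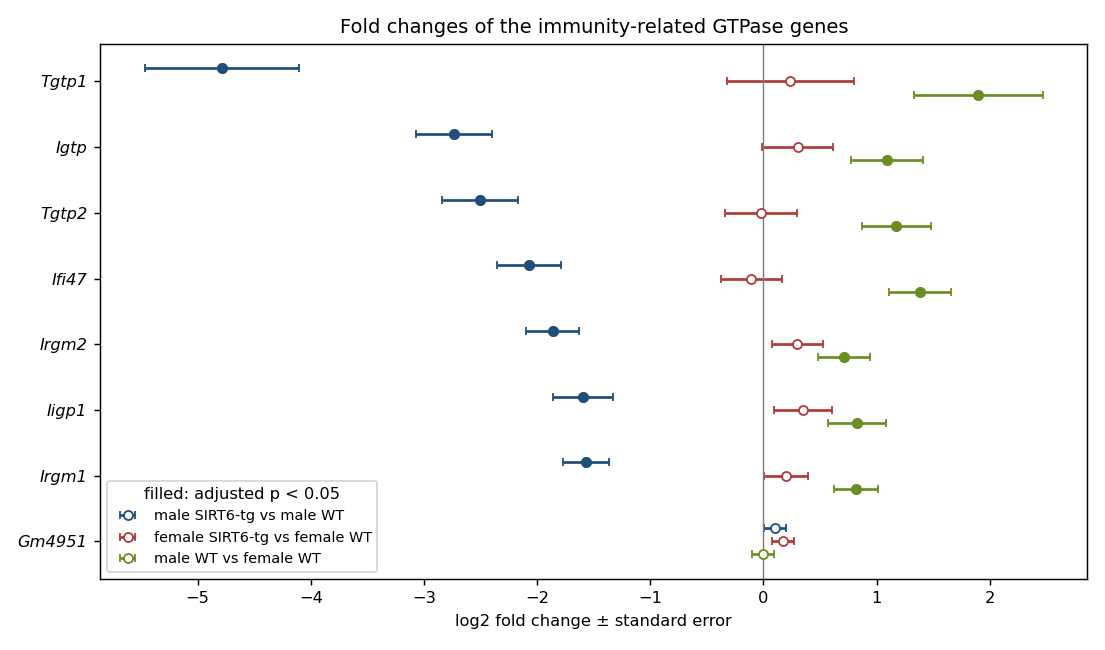
Log2 fold change with its standard error for the 8 genes in male SIRT6-tg against male WT (blue), female SIRT6-tg against female WT (red) and male WT against female WT (green) livers, from 1 edgeR fit of 28 libraries; filled points have an adjusted p under 0.05. The blue points of 7 genes lie between -4.79 and -1.57, the red points lie near 0, the green points of the same 7 genes lie above 0, and Gm4951 is near 0 in all.

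Levels of different members can be compared per kilobase of exon, with limits for *Tgtp1* and *Tgtp2*. Only uniquely aligned reads were counted, and 81.2% and 86.6% of the 50-base stretches of these 2 genes occur in other genes, so their levels per kilobase may be too low and their place in the order is uncertain. In male WT livers the mean level per kilobase was highest for *Iigp1* (164 CPM per kb), followed by *Igtp* (89.7), *Gm4951* (48.4), *Irgm2* (44.2), *Ifi47* (41.1) and *Irgm1* (25.4), then *Tgtp1* (8.65) and *Tgtp2* (1.60). The ranges of neighbours in this order did not overlap between *Iigp1* and *Igtp*, between *Irgm1* and *Tgtp1* and between *Tgtp1* and *Tgtp2*. The other neighbours overlapped, although *Ifi47* exceeded *Irgm1* in each of the 7 mice. In male SIRT6-tg livers *Gm4951* (51.99 CPM per kb) moved up next to *Iigp1* (54.4), and these 2 overlapped. *Igtp* (13.5), *Irgm2* (12.2), *Ifi47* (9.78) and *Irgm1* (8.56) formed a run of overlapping neighbours, and *Tgtp1* (0.308) and *Tgtp2* (0.281) overlapped at the bottom. With the length of the longest transcript in place of all exon bases, *Ifi47* stood at the third place in both male groups, ahead of *Gm4951* and *Irgm2* in WT and of *Igtp*, *Irgm1* and *Irgm2* in SIRT6-tg males, so the order of these genes depends on the length used.

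In female WT livers the order by mean was *Iigp1* (92.7 CPM per kb), *Gm4951* (48.5), *Igtp* (42.1), *Irgm2* (27.0), *Ifi47* (15.8), *Irgm1* (14.4), *Tgtp1* (2.32) and *Tgtp2* (0.714). Only *Irgm1* and *Tgtp1*, and *Tgtp1* and *Tgtp2*, had ranges that did not overlap there. Female SIRT6-tg livers had the same order except that *Irgm1* (16.6) preceded *Ifi47* (14.6), and all neighbours overlapped. The order in both female groups was the same with the longest transcript. The make-up of the family also differed by group. *Gm4951* made up a median of 13.1% of the summed level per kilobase in male WT mice, 32.4% in male SIRT6-tg mice, 19.4% in female WT mice and 22.1% in female SIRT6-tg mice. *Igtp* made up 21.7% in male WT and 9.02% in male SIRT6-tg mice, and the ranges of these shares did not overlap for either gene. The 8 genes together took a median of 0.171% of all counts in male WT, 0.0569% in male SIRT6-tg, 0.0987% in female WT and 0.107% in female SIRT6-tg livers.

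**Figure D5:**
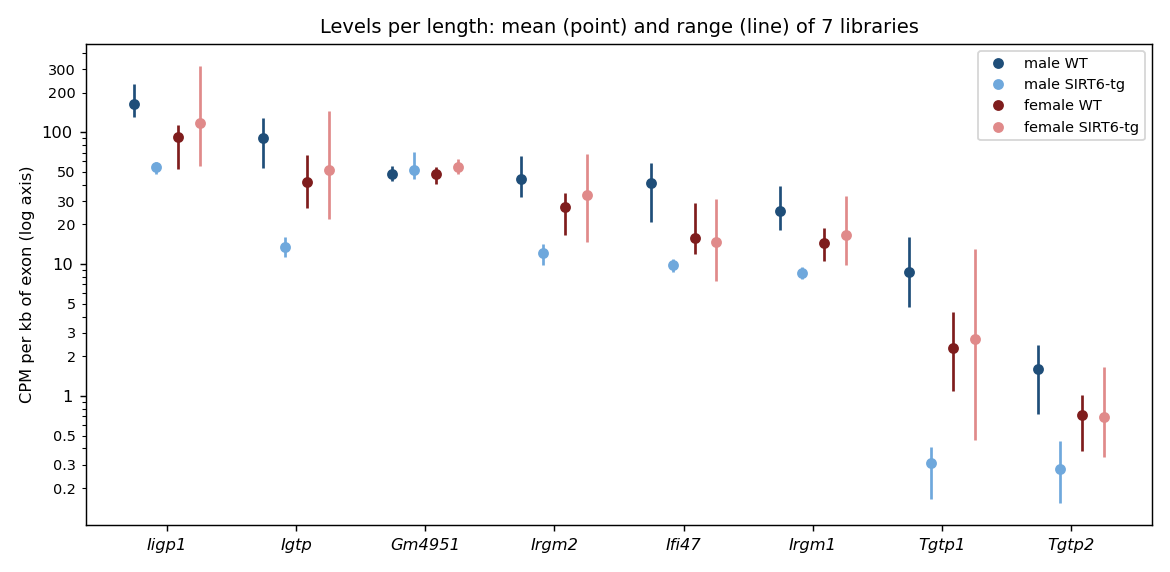
Level of each gene per kilobase of exon (CPM per kb, log axis) in the 4 groups; the point is the mean and the line the range of 7 libraries. Male SIRT6-tg points (light blue) are the lowest of each gene except Gm4951, whose 4 groups lie at about the same height.

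Further genes of the family behaved in a similar way in males. Of 10 other family genes listed, 8 were tested and 6 were lower in transgenic males, with a median log2 fold change of -1.59. Over all genes tested 11% were lower. *Gm12250*, the gene of the effector IRGB10, next to *Igtp*, fell by 3.62 on the log2 scale (SE 0.47), from 12.4 to 36.9 CPM in male WT to 1.36 to 2.39 CPM in male SIRT6-tg mice. *Gm4841* on chromosome 18 fell by 3.64 (SE 0.46), and *Gm12185* fell by 3.08 (SE 0.41). *Gm5431* fell by 1.35, *9930111J21Rik1* fell by 1.83 and *9930111J21Rik2* fell by 0.96. Values for genes that did not pass the test were -0.54 for *F830016B08Rik* and -0.04 for *Irgq*, a distant relative. *Gm12187* and *Irgc1* had too few counts to be tested. In females edgeR called 0.0278% of all genes tested and DESeq2 called 42 of 17398. Of the 8 tested family genes 0 passed with either and 0 had an unadjusted p under 0.05. The effect differed between the sexes for 3, *Gm12250*, *Gm4841* and *Gm12185*, where 3.84% of all genes tested were more negative in males.

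Genes between and beside the members were also read, within 100 kb of each cluster. Over all genes tested 11% were lower and 9.68% were higher in transgenic males. In the first cluster 2 of 11 tested genes outside the family were lower in transgenic males, *Olfr56* (log2 fold change -2.52) and the pseudogene *Gm12188* (-2.31). Both overlap exons of *Ifi47*. In the second cluster 0 of 6 were lower and 3 were higher, among them *Mrpl22* (0.36) and *Cnot8* (0.31), but 0 were higher with RLE, upper-quartile or total-count scaling. In the third cluster 3 of 3 were lower, *BC023105* (-4.18), *Gm5970* (-1.18) and *Smim3* (-0.94). *Gm4951*, which did not pass the test, and *Gm4841* and *Iigp1*, which fell, thus lie within 1 cluster.

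Most of the listed genes of interferon-gamma signalling, among them the cytokine and transcription factors, were lower in male SIRT6-tg livers. Of 11 listed genes 8 fell and 0 rose, with a median log2 fold change of -1.28. Over all genes tested 11% were lower and 9.68% were higher. *Ifng*, the cytokine, had 4 to 43 counts per library in male WT and 1 to 5 in male SIRT6-tg mice, and its log2 fold change was -2.82 (SE 0.50, adjusted p = 0.000101, edgeR). The receptor gene *Ifngr1* fell by 0.44 (SE 0.11). Values for *Ifngr2* (-0.26), *Jak1* (-0.06) and *Jak2* (-0.29) did not pass the test.

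*Irf1* had 74.7 to 127 CPM in male WT and 26.0 to 57.3 CPM in transgenic males, a log2 fold change of -1.28 (SE 0.17). Its male groups did not overlap. *Irf8*, a transcription factor of myeloid cells, fell by 1.74 on the log2 scale, and *Socs1*, the feedback inhibitor of JAK kinases, fell by 2.62. The transactivators of antigen presentation genes fell too, *Ciita* by 3.10 and *Nlrc5* by 0.74.

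In females edgeR called 0.0278% of all genes tested and DESeq2 called 42 of 17398. Of these 11 genes 0 passed with either and 1 had an unadjusted p under 0.05, with *Irf1* at -0.05 on the log2 scale. The effect differed between the sexes for 5, among them *Irf1*, *Irf8* and *Ciita*, where 3.84% of all genes tested were more negative in males. Male WT exceeded female WT livers for 6 of the 11, where 6.65% of all genes tested were higher in males.

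Related gene groups moved with the family to different degrees. The shares over all genes tested in males were 11% lower and 9.68% higher. Of 11 guanylate-binding protein genes 10 were lower in transgenic males (median log2 fold change -2.63), among them *Gbp5* and *Gbp2* with -2.98 and -3.08. These genes also resemble each other in sequence. Of 12 genes of the type I interferon response 7 were lower (median -0.77), with *Oasl2* at -1.39 and *Ifit2* at -1.48. The ATG8 conjugation machinery, which immunity-related GTPases need to find their target membranes, had 5 of 10 genes higher and 0 lower (median 0.30), but 3 higher with upper-quartile scaling and 1 higher with libraries scaled to their totals alone (median 0.01). Among the higher genes were *Atg3* and *Atg5*, with log2 fold changes of 0.49 and 0.38. In females edgeR called 0.0278% of all genes tested and DESeq2 called 42 of 17398. Of the 33 genes of these 3 groups 0 passed with either, and 0 had an unadjusted p under 0.05 with edgeR.

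Markers of immune cells were lower in male SIRT6-tg livers too, where 11% of all genes tested were lower. All 8 T cell markers fell (median log2 fold change -2.44), among them *Cd8a* (-3.67) and *Cd3e* (-2.56). Their summed level was 15.0 to 43.8 CPM in male WT and 4.60 to 6.69 CPM in male SIRT6-tg mice. Of 7 NK cell markers 5 fell, with *Eomes* at -3.99 and *Prf1* at -2.81, and the summed level was 8.01 to 33.3 CPM against 2.52 to 5.86 CPM. Values for the NK cell markers *Ncr1* (-0.45) and *Klrb1c* (-0.52) did not pass the test. All 10 macrophage and dendritic cell markers fell, with log2 fold changes from -3.09 for *Itgax* to -0.55 (median -1.24), and *Flt3* at -1.98. Their summed level was 335 to 1059 CPM against 297 to 501 CPM. Of 5 B cell markers 4 fell, with *Cd22* at -1.36, and the summed level was 10.7 to 17.1 CPM against 5.55 to 9.95 CPM. The part of these cell types in the levels of the family was not tested.

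The shares over all genes tested in males were 11% lower and 9.68% higher. Against these shares, 1 call in a short list says little about that list. Among other cells of the liver, all 5 stellate cell markers fell (median -0.68), led by *Pdgfrb* (-0.72) and *Lrat* (-0.68). Of 7 sinusoidal endothelial markers 1 fell, *Pecam1* (-0.37), and *Lyve1* (-0.80) did not pass the test. Of 4 cholangiocyte markers 0 passed, with *Sox9* at -0.46 and *Epcam* at -0.28, and of 4 tested neutrophil markers 0 passed (median -0.19), with *S100a9* at -0.68, *S100a8* at -0.83, *Camp* at 0.30 and *Ngp* at 1.08. Hepatocyte genes, the defining transcripts of the tissue, had summed levels of 105445 to 145545 CPM in male WT and 128416 to 175487 CPM in male SIRT6-tg mice, and 4 of 8 were higher, among them *Fgb* (0.40) and *Fgg* (0.41), but 3 with RLE and 0 with upper-quartile or total-count scaling. Of 4 blood cell genes 1 was higher, *Alas2* (0.42), but 0 with upper-quartile or total-count scaling, and *Hbb-bt* was at 0.28. With libraries scaled to their totals alone 5 of 7 sinusoidal endothelial markers were lower. Under that setting 4294 of the 21583 genes tested were called in males, 210 of them higher. In females edgeR called 0.0278% of all genes tested and DESeq2 called 42 of 17398. Of the 62 markers of these cell types 0 passed with either, which at such shares says little about them. An unadjusted p under 0.05 was found for 10 (edgeR), where 1212 of all 21583 genes tested had one. Of the 10, 3 were T cell and 3 were hepatocyte genes. Female log2 fold changes ran from -0.92 to -0.25 for T cell and from -0.54 to -0.17 for macrophage and dendritic cell markers. They ran from -0.62 to 0.32 for NK cell markers and from -0.29 to 0.08 for hepatocyte genes.

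Among mice of the same group the members varied together. After the mean of each group was subtracted from log2 CPM, each of 7 members correlated over the 28 libraries with the mean of the others at r between 0.78 for *Ifi47* and 0.95 for *Igtp*, whereas r was 0.16 for *Gm4951*. These are descriptions of libraries that share a depth and a scaling within each mouse. The 5 genes outside the list most like its mean were *Gm12250* (r = 0.95), *Tap1*, a peptide transporter of antigen presentation (0.92), *Gbp7* (0.91), *Gbp4* (0.90) and *BC023105* (0.89). Without female SIRT6-tg replicate 2 the 5 were *Gm12250* (0.92), *Gbp2* (0.89), the serine protease inhibitor genes *Serpina3g* (0.89) and *Serpina3f* (0.85), and *Gbp4* (0.84), and r for *Gm4951* against the other members was -0.04. For the 7 members r was then lower in each case, between 0.67 for *Ifi47* and 0.90 for *Igtp*.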

How the data were processed

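Per the labels and the study's methods, the authors prepared single-end NEBNext Ultra libraries from liver RNA, aligned them with STAR 2.5.0a to mm10, which is GRCm38, and counted uniquely aligned reads on Gencode vM12 genes with HTSeq. The authors deposited raw read counts per gene without normalization, 1 column per library. Groups and replicate numbers came from sample titles.

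Symbols, coordinates and exon lengths were taken from Gencode vM21. Genes with a mean of at least 0.5 counts after DESeq2 size-factor scaling were tested, 21583 in all. Counts were TMM-normalized and analysed by edgeR 4.0.16 in R 4.3.3 (robust quasi-likelihood fit of 28 libraries, 1 coefficient per group, F-test), with p-values adjusted by Benjamini-Hochberg over all genes. The SE was taken as the log2 fold change over the square root of F, and 95% intervals follow from it. The step was tested on simulated data. Members, lists and named genes were chosen with earlier results of these data known. Named were all members, all genes of the family and interferon-gamma lists, 2 genes with the lowest adjusted p of each other list, and the 5 genes most like the members. Genes beside the clusters, further NK cell markers, and values of female SIRT6-tg replicate 2, were added after values were seen. Alternatives were other scalings and filters, DESeq2 1.42.0, separate sexes, a replicate block, added counts of overlapping pairs and each library left out. Each library came from a separate mouse. No 2 libraries of a group agreed within sampling noise. Values of some listed genes are not reported here.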

Additional observations from a re-analysis of the deposited data

Results flagged for a closer look

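In 9 of 32 sets of 7 mice (8 genes in 4 groups) the most extreme mouse stood apart by Dixon's 95% criterion. About 1 of 20 sets of normally distributed values meets it by chance, and the rate for CPM values was not tested. Female SIRT6-tg replicate 2 accounted for 6 of the 9, with the highest CPM of its group for *Irgm1* (190), *Irgm2* (253), *Igtp* (293), *Iigp1* (1856), *Tgtp1* (41.4) and *Tgtp2* (4.85). The 6 genes vary together and so are not separate signs. The others were *Iigp1* in female WT replicate 2, low at 307 CPM, *Ifi47* in female WT replicate 4, high at 71.9 CPM, and *Gm4951* in male SIRT6-tg replicate 7, high at 186 CPM.

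The effect of SIRT6 overexpression differed between males and females by the interaction term for 7 members, with a log2 difference (male minus female) of -1.77 for *Irgm1*, -2.16 for *Irgm2*, -3.03 for *Igtp*, -1.95 for *Iigp1*, -5.03 for *Tgtp1*, -2.48 for *Tgtp2* and -1.97 for *Ifi47*. *Sirt6* itself was raised less in transgenic females, and the part of that in these differences was not tested.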

How the results depend on the processing

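The 7 calls in males, the 7 differences between the sexes and the absence of calls in females stood under each of the alternatives run for them, with each of the 28 libraries left out included. The 7 members higher in male WT than in female WT mice became 5 without a filter on low counts and 3 to 7 with a library left out. Over all genes, the female comparison called 6 genes, 42 with DESeq2, 2 with the sexes fitted separately and 3 to 16 with a library left out. With libraries scaled to totals alone, 1863 genes in place of 1089 differed in effect between the sexes and 4212 in place of 2669 differed between male and female WT mice. The share of higher genes among those called in males was 46.8% with TMM, 35.7% with RLE, 26.2% with upper-quartile scaling and 4.89% with totals alone. Among genes differing by sex in WT mice it was 53.8% with TMM and 86.8% with totals alone, and among those differing in effect 23.9% with TMM, 14.2% with RLE, 10.8% with upper-quartile scaling and 1.40% with totals alone. The cause of these changes was not tested.

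Directions turned for values that passed no test. *Gm4951* in males was -0.19 with totals alone. *Tgtp2* in females was 0.18 with the *Tgtp1* counts added. *Gm4951* between male and female WT mice was 0.016 with RLE and with DESeq2, 0.19 with totals alone and 0.0040 with filterByExpr, and *Sirt6* was 0.14 with totals alone. With a library left out, female values ran from -0.055 to 0.29 for *Irgm1*, -0.21 to 0.45 for *Igtp*, -0.13 to 0.47 for *Iigp1*, -1.21 to 0.46 for *Tgtp1*, -0.41 to 0.086 for *Tgtp2* and -0.41 to 0.11 for *Ifi47*. Values between WT sexes then ran from -0.042 to 0.045 for *Gm4951* and from -0.16 to 0.24 for *Sirt6*.

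Replicate numbers are shared by the 4 groups, but same-numbered mice did not deviate together in all pairs (correlations from -0.478 to 0.420), so the numbers were not taken as pairs. With the replicate block 4209 genes were called in males, 6 in females, 989 for the difference in effect and 2474 between WT sexes, and 7, 0, 7 and 5 members. Under the replicate block *Tgtp1* in females was -0.42, and between WT sexes *Gm4951* was 0.00067 and *Sirt6* 0.0017.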
